A study of Mus musculus with 4 samples.

Results

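Interferon-stimulated genes are the genes that cells switch on when an interferon binds its receptor. Here they were followed as 45 named genes, the interferon-stimulated genes and their STAT and IRF regulators, picked by symbol from the 28987 genes of the table, and 45 of 45 were found. They were split into regulators and feedback genes (6), the Oas family (6), the Ifit family (3), GTPases (7), nucleic acid sensors (6), the Ifitm family (4), PARP and ubiquitin ligase genes (3), other antiviral effectors (5) and other induced genes (5).

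RNA sequencing had been done on c-Kit+ bone marrow cells of C57BL/6 mice, selected on CD117 beads and labelled as haematopoietic stem and progenitor cells. The Hif1a-null group (2 libraries) had the genotype MllPTD/WT, Runx1 Flox/Flox, Hif-1alpha Flox/Flox, Mx1-Cre. The Hif1a-intact group (2 libraries) had the genotype MllPTD/WT, Runx1 Flox/Flox, Mx1-Cre, so both groups carried the partial tandem duplication of Mll (Kmt2a), the floxed Runx1 and the Cre. Hif1a encodes the subunit of HIF-1 that is stabilised when oxygen is low, and the comparison asks what its loss changes in these progenitors. Cre is driven by the promoter of Mx1, which is itself an interferon-stimulated gene and 1 of the 45. The sources used here do not give the agent that induced Cre, the time between induction and collection, or the age of the mice. Nor is it stated that libraries came from different animals or cultures, so each p-value reflects the spread between libraries alone, and that spread may be technical. Replicate numbers are names and pair nothing.

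Interferons alpha and beta signal through a shared receptor, Ifnar1 with Ifnar2, and the kinases Jak1 and Tyk2 to a complex that holds Stat2 and Irf9 and binds a DNA element called the interferon-stimulated response element (ISRE). Interferon gamma acts through a receptor of its own and a different element, GAS. In marrow, interferon is known to drive quiescent stem cells into division, and many interferon-stimulated genes are also expressed at a resting level in stem cells and in mature leukocytes.

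In the Hif1a-null libraries 10 of the 43 tested members were higher and 0 were lower. They were Oas1a, Oas1g, Oas2 and Oas3, which encode enzymes that make the 2-5A messenger of RNase L, Usp18, the feedback protease of the pathway, the effectors Ifit1, Rsad2 and Ifitm6, and the induced genes Ifi44 and Rtp4. The members called formed a minority: the STAT and IRF genes, the GTPases and the RNA sensors had no called member. The test was limma on log2(TPM + 1), with p-values adjusted over all 11909 genes that reached 1 TPM in at least 2 libraries and a threshold of 0.05. A fold change is given as the difference on that log2 scale, Hif1a-null minus Hif1a-intact, which understates the change of low genes. Among the tested members 23.3% were called higher and 0 lower, where 5.25% of all tested genes were called higher and 2.02% lower (7.27% in either direction). At an unadjusted limma p under 0.05, 19 members were higher and 1, Gbp3, was lower, where 11.4% of all tested genes were higher and 11.9% lower. At the adjusted threshold 0 members were lower with the trend or the robust variance of limma as well. In bulk RNA, fewer cells of a type and less RNA per cell cannot be told apart.

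The count of called members has a limit set by the filter. Of the 43 tested members, 5 (Oas1g, Oas2, Ifit1, Rsad2 and Mx1) lay below 1 TPM in the Hif1a-intact pair and entered the test only through the Hif1a-null libraries, so a higher value was the only direction open to them, and 4 of these 5 were called. Of the 38 members that reached 1 TPM in at least 1 library of each group, 6 (15.8%) were called higher, where 2.62% of all such genes were. The remaining 2 members, Ifit3 and Mx2, were too low to be tested.

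**Figure D1:**
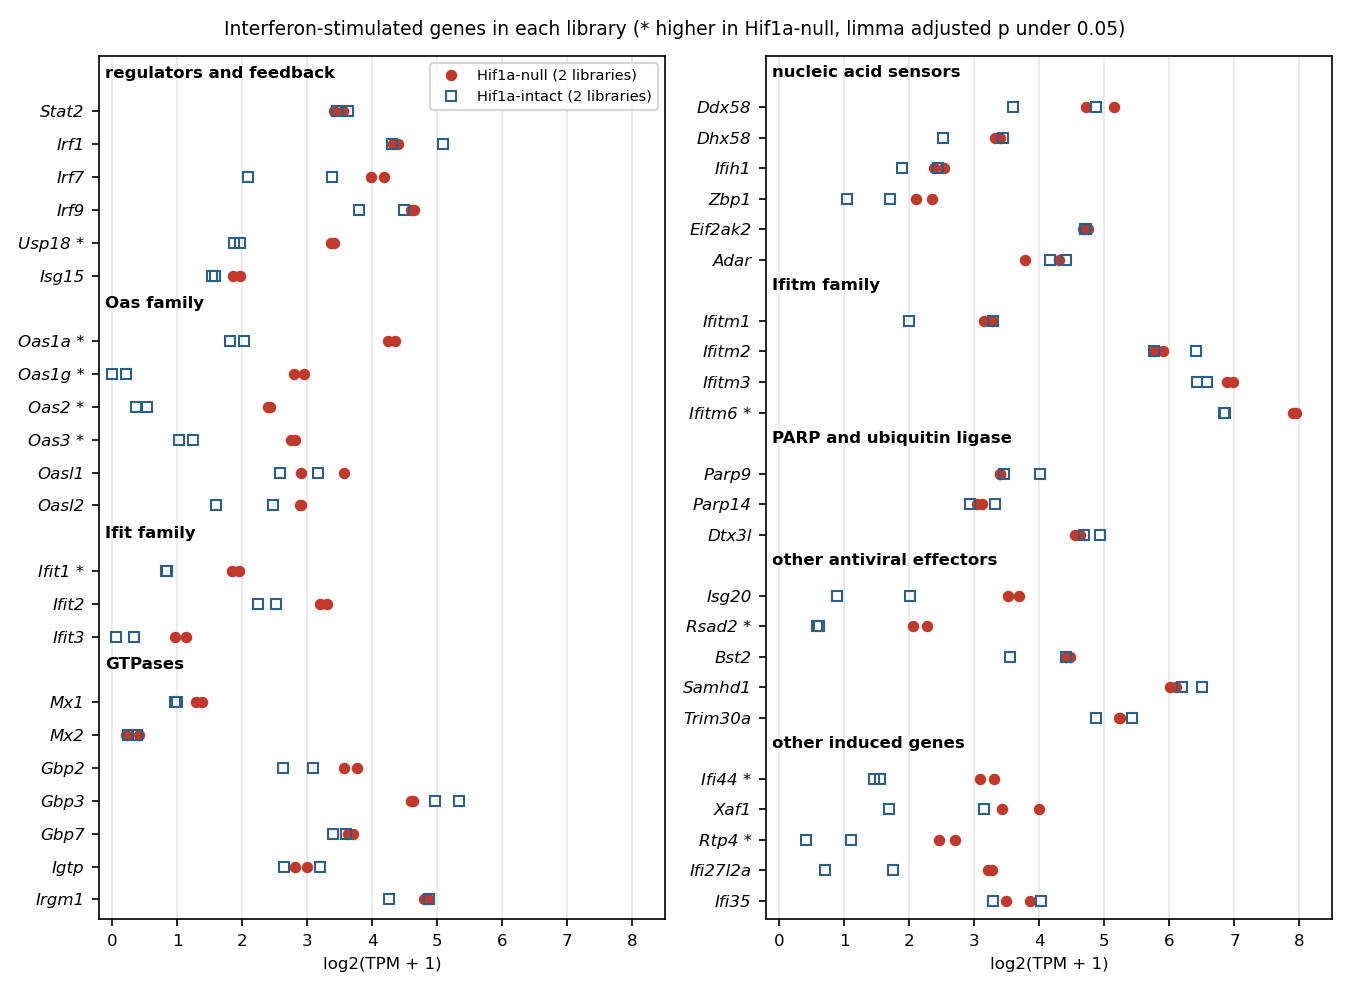
Values of the 45 members as log2(TPM + 1) in each library, with filled circles for the 2 Hif1a-null and open squares for the 2 Hif1a-intact libraries, by role. The asterisks mark the 10 members called higher; in each of these both circles lie to the right of both squares.

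The deposited values do not test the deletion itself, since a gene-level value also counts reads from exons outside the deleted part. Hif1a read 98.8 and 113 TPM in Hif1a-null libraries, against 100.3 and 75.2 TPM in Hif1a-intact libraries (limma adjusted p = 0.479). Runx1 read 48.4 and 46.7 TPM in Hif1a-null libraries and 73.6 and 76.6 TPM in Hif1a-intact libraries (limma adjusted p = 0.0636). The stem and progenitor marker Kit read 121 and 102 TPM in Hif1a-null libraries and 128 and 126 TPM in Hif1a-intact libraries, so the selected receptor was present in each. All 9 stem and progenitor markers summed to 371 and 378 TPM in Hif1a-null libraries and 436 and 420 TPM in Hif1a-intact libraries. Of the 8 tested, 1 was called higher and 0 lower. Both Hif1a-null values were above in 3 of them and below in 4, where 22.7% of all tested genes were above and 32.3% below. Other lineages differed between the groups. All 8 erythroid markers and 8 of 10 maturing neutrophil markers were called higher in the Hif1a-null libraries, as were 10 of the 11 lymphocyte and natural killer markers tested, where 5.25% of all tested genes were. Of these, 3 erythroid and 7 lymphocyte or natural killer markers entered the test only through the Hif1a-null libraries, so higher was their only possible call. Summed over each list, erythroid markers came to between 6476 and 6978 TPM in Hif1a-null libraries and between 74.4 and 116 TPM in Hif1a-intact libraries. Neutrophil markers summed to between 34426 and 35648 TPM in Hif1a-null libraries and between 22748 and 25999 TPM in Hif1a-intact libraries. Lymphocyte and natural killer markers summed to between 273 and 275 TPM in Hif1a-null libraries and between 21.9 and 26.7 TPM in Hif1a-intact libraries, where Rag1 and Gzma were listed at 0 in both. The part of these cells in the values of the interferon-stimulated genes was not tested.

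The promoters of the called genes are shown first, because the ISRE is the element bound by the complex that holds Stat2 and Irf9. RefSeq promoters (GRCm38.p6) were matched for 35 of the 45 members. The ISRE core was searched as GAAA, any 2 bases, GAAA, on both strands in the 250 bases before the start of the gene. It was present in 978 of 32851 promoters of that length (2.98%). Counted per gene, since a gene can have several promoters, it was present in 936 of 27025 genes (3.46%), in 16 of the 35 members (45.7%), in 5 of the 7 called members with a promoter and in 11 of the 28 others. The 5 called members with a match were Oas1a, Oas1g, Oas3, Ifit1 and Rsad2, and Ifitm6 and Ifi44 had none. The 150 bases before the start of these 5 are given 5′ to 3′ in the direction of the gene, with the bases covered by ISRE matches of either strand in capitals. Their positions are chr5:120907526-120907675 for Oas1a, chr5:120887614-120887763 for Oas1g, chr5:120777660-120777809 for Oas3, chr19:34640739-34640888 for Ifit1 and chr12:26456453-26456602 for Rsad2. Ifit1 is on the plus strand and the other 4 are on the minus strand.
Oas1a: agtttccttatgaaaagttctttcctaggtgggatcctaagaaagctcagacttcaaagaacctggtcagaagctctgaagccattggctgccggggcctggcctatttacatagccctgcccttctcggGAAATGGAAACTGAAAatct
Oas1g: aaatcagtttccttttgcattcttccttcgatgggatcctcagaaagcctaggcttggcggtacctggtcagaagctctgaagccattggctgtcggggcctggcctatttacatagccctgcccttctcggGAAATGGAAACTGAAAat
Oas3: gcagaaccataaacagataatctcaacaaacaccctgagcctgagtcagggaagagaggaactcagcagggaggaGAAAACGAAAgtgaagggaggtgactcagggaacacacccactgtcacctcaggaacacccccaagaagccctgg
Ifit1: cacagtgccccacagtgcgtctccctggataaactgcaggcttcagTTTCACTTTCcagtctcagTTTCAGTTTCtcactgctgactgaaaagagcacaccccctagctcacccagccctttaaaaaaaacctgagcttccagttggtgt
Rsad2: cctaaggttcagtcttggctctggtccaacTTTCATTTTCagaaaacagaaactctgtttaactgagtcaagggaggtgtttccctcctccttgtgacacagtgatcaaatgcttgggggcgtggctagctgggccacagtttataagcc

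In Oas1a a pair of overlapping matches began 20 and 14 bases before the start, and in Oas1g the same pair began 18 and 12 bases before it. These windows, compared at an offset of 2 bases, had 120 of 148 bases in common (81.1%). In Oas3 the match began 75 bases before the start. Ifit1 had separate matches at 104 and 85 bases and Rsad2 a match at 120 bases, all of them on the opposite strand, where the core reads TTTC, any 2 bases, TTTC along the gene.

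An ISRE match was not limited to called members. Isg15, Irgm1 and Bst2, none of them called, are shown for comparison because each has overlapping matches like those of Oas1a. Their windows lie at chr4:156200819-156200968, chr11:48871421-48871570 and chr8:71537473-71537622, all on the minus strand.
Isg15: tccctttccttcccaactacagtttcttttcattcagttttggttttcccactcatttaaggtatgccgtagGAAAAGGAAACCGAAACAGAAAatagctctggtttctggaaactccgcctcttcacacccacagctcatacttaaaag
Irgm1: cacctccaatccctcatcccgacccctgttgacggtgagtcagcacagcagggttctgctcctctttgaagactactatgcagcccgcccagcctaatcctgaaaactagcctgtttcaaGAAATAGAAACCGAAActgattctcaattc
Bst2: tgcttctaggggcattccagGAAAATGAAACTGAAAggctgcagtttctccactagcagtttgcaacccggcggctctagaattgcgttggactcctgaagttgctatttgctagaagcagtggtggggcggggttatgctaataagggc

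Isg15 had 3 overlapping matches, from 78 to 66 bases before its start. Irgm1 had a pair at 30 and 24 bases and Bst2 a pair at 130 and 124 bases. The GAS core, TTC, any 3 bases, GAA, which reads the same on both strands, was found in 10 of the 35 members, in 2 of the 7 called members and in 8 of the 28 others, against 8.13% of all genes and 7.02% of all promoters. A match is a string of letters in this window and says nothing of binding.

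Of the 6 regulators and feedback genes, 1 was called, the protease gene Usp18. Stat2, the STAT of the type I complex, read 9.67 and 10.7 TPM in Hif1a-null libraries, against 10.001 and 11.3 TPM in Hif1a-intact libraries (log2 fold change -0.06, limma adjusted p = 0.846). The groups overlapped. Irf9, the DNA-binding partner in that complex, read 24.0 and 23.1 TPM in Hif1a-null libraries and 21.5 and 12.8 TPM in Hif1a-intact libraries (0.48, limma adjusted p = 0.384). The Hif1a-null values were above both Hif1a-intact values, but by less than those differed from each other. Irf1, a factor that responds to interferon gamma, read 20.2 and 19.0 TPM in Hif1a-null libraries and 32.8 and 18.8 TPM in Hif1a-intact libraries, with overlapping groups.

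Irf7, the factor that amplifies interferon alpha production, read 14.8 and 17.1 TPM in Hif1a-null libraries, against 9.44 and 3.27 TPM in Hif1a-intact libraries. Both Hif1a-null values were the higher ones, but the Hif1a-intact pair was 2.89-fold apart and the difference did not pass (log2 fold change 1.34, SE 0.47, limma adjusted p = 0.198). Isg15, a ubiquitin-like protein attached to other proteins during the response, read 2.92 and 2.61 TPM in Hif1a-null libraries and 1.98 and 1.91 TPM in Hif1a-intact libraries (0.35, limma adjusted p = 0.211). Usp18 removes Isg15 from proteins and also blocks signalling at Ifnar2. It read 9.33 and 9.63 TPM in Hif1a-null libraries, against 2.68 and 2.90 TPM in Hif1a-intact libraries. Replicates of each group nearly coincided, and Usp18 was 3.40-fold higher by the ratio of means (log2 fold change 1.47, SE 0.13, limma adjusted p = 0.0118). Usp18 lies at chr6:121245906-121270917 on the plus strand (GRCm38, GENCODE vM21, as are the gene positions that follow).

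Of the 6 Oas family genes 4 were called higher, where 5.25% of all tested genes were. Of these 4, Oas1g and Oas2 entered the test only through the Hif1a-null libraries, so higher was their only possible call. Oas1g and Oas1a had the largest log2 fold changes of the tested members. Oas1a read 18.0 and 19.3 TPM in Hif1a-null libraries, against 3.06 and 2.52 TPM in Hif1a-intact libraries, a 6.69-fold ratio of means (log2 fold change 2.38, SE 0.14, limma adjusted p = 0.00679). Oas2 read 4.26 and 4.40 TPM in Hif1a-null libraries and 0.293 and 0.445 TPM in Hif1a-intact libraries, an 11.7-fold ratio (1.96, SE 0.13, limma adjusted p = 0.00806). Oas3, the family member with the longest protein, read 5.74 and 5.99 TPM in Hif1a-null libraries and 1.05 and 1.37 TPM in Hif1a-intact libraries, a 4.86-fold ratio (1.64, SE 0.14, limma adjusted p = 0.0120). In Oas1a and Oas3, which reached 1 TPM in both groups, the gap between groups was many times the gap between replicates.

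Oas1g read 6.74 and 5.96 TPM in Hif1a-null libraries. In the Hif1a-intact libraries it read 0.157 TPM in replicate 1 and was listed at 0 in replicate 2, so no ratio is given (log2 fold change 2.77, SE 0.15, limma adjusted p = 0.00603). Its transcript is 97.6% identical to that of Oas1a over 1861 bases, so the split of reads between them is uncertain. Their sum avoids that split. It was 24.8 and 25.3 TPM in Hif1a-null libraries, against 3.22 and 2.52 TPM in Hif1a-intact libraries (joint log2 fold change 2.76, limma adjusted p = 0.00605).

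The 4 called Oas members lie in 1 gene cluster, as 2 adjacent pairs. Oas2 (chr5:120730333-120749853), Oas3 (chr5:120753098-120777661), Oas1g (chr5:120876142-120887613) and Oas1a (chr5:120896256-120907521) are all on the minus strand in this cluster of 10 genes. Among the other 6 genes of the cluster, which are not among the 45, Oas1b and Oas1c passed the filter and both were called higher. Oas1c read 5.60 and 7.15 TPM in Hif1a-null libraries and 0.921 and 0.737 TPM in Hif1a-intact libraries (log2 fold change 2.01, limma adjusted p = 0.0114). Oas1b, annotated as a polymorphic pseudogene, read 3.12 and 2.72 TPM in Hif1a-null libraries and was listed at 0 and 0.173 TPM in Hif1a-intact libraries (1.85, limma adjusted p = 0.0112). Both entered the test only through the Hif1a-null libraries. Oas1e and Oas1f were listed at 0 in all 4 libraries, and Oas1d and Oas1h were under 1 TPM in all of them.

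**Figure D2:**
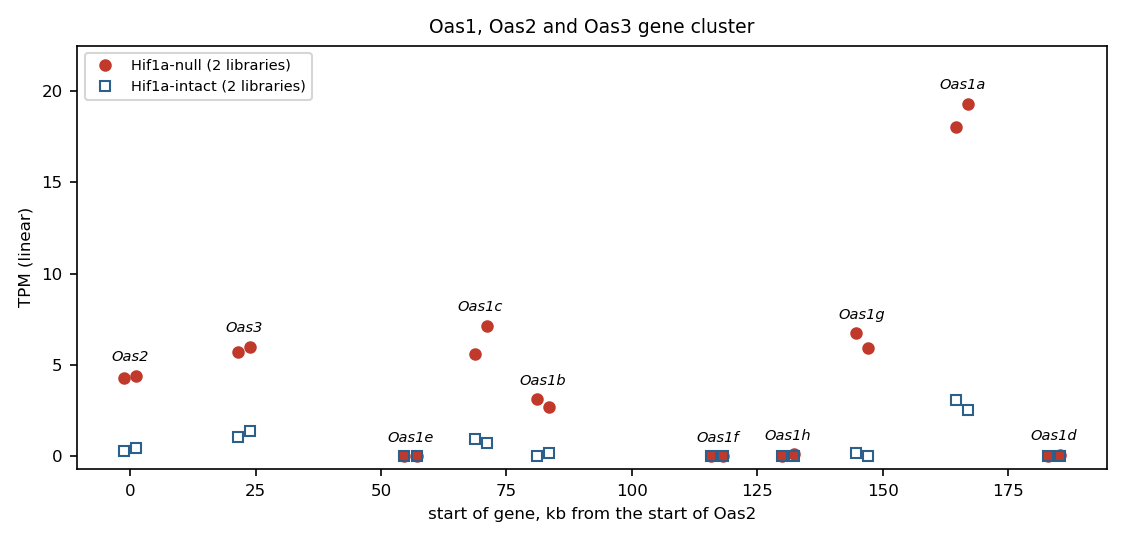
TPM (linear axis) of the 10 genes of the Oas cluster against the distance of each gene's start from the start of Oas2 in kb, with filled circles for Hif1a-null and open squares for Hif1a-intact libraries, the libraries of a gene set slightly apart. The 6 expressed genes had higher values in both Hif1a-null libraries, up to 19.3 TPM for Oas1a, while Oas1d, Oas1e, Oas1f and Oas1h lay at or near 0.

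Oasl1 and Oasl2, the related Oas-like genes elsewhere on chromosome 5, were not called. Oasl1, a negative regulator of Irf7 translation in mouse, read 10.8 and 6.48 TPM in Hif1a-null libraries and 5.01 and 7.98 TPM in Hif1a-intact libraries (log2 fold change 0.36, limma adjusted p = 0.587). Its groups overlapped. Oasl2 read 6.42 and 6.45 TPM in Hif1a-null libraries, above 4.58 and 2.03 TPM in Hif1a-intact libraries, which were 2.26-fold apart (0.86, limma adjusted p = 0.229).

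Ifit proteins bind viral RNA and stop its translation. Of the 2 tested Ifit genes, Ifit1 entered only through the Hif1a-null libraries, so higher was its only possible call. Ifit1 (chr19:34640871-34650009, plus strand) read 2.87 and 2.57 TPM in Hif1a-null libraries, against 0.783 and 0.786 TPM in Hif1a-intact libraries, a 3.47-fold ratio of means (log2 fold change 1.06, SE 0.13, limma adjusted p = 0.0239). With a pseudocount of 5 in place of 1 the call was lost (adjusted p = 0.0881, the highest of a range that began at 0.0141 over its alternatives). Ifit2 read 8.89 and 8.18 TPM in Hif1a-null libraries and 4.73 and 3.74 TPM in Hif1a-intact libraries. It was 2.02-fold higher without overlap and lay just outside the threshold (0.87, SE 0.16, limma adjusted p = 0.0571). Ifit3 read 0.960 and 1.19 TPM in Hif1a-null libraries and 0.0386 and 0.264 TPM in Hif1a-intact libraries, too low to be tested. Its transcript is 97.8% identical to that of Ifit3b, and their sum did not pass (joint log2 fold change 0.96, limma adjusted p = 0.0607). With protein-coding genes only, Ifit3 was called higher. Both the sum and Ifit3 entered those fits only through the Hif1a-null libraries, so higher was their only possible call.

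The interferon-inducible GTPases, which attack viral capsids (Mx) or the vacuoles of intracellular pathogens (Gbp and Irg), had 0 called members among 6 tested. At an unadjusted limma p under 0.05, Mx1 and Gbp2 were higher and Gbp3 was lower, where 11.4% of all tested genes were higher and 11.9% lower. Mx1 entered the test only through the Hif1a-null libraries, so higher was its only possible direction. Gbp2 had the smallest p, with 10.8 and 12.6 TPM in Hif1a-null libraries and 7.52 and 5.17 TPM in Hif1a-intact libraries (log2 fold change 0.81, SE 0.21, limma adjusted p = 0.124). Gbp3, in the same gene cluster, had values in the other direction, with 23.8 and 23.1 TPM in Hif1a-null libraries and 39.5 and 30.1 TPM in Hif1a-intact libraries (-0.54, limma adjusted p = 0.186). Neither pair of groups overlapped. Gbp7 read 12.0 and 11.3 TPM in Hif1a-null libraries and 11.1 and 9.52 TPM in Hif1a-intact libraries.

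Mx1 supplies the promoter that drives Cre in all 4 libraries, and in C57BL/6 mice the gene itself is known to carry a defective allele. It read 1.44 and 1.61 TPM in Hif1a-null libraries, against 0.951 and 0.986 TPM in Hif1a-intact libraries (log2 fold change 0.36, SE 0.13, limma adjusted p = 0.203). The difference was small and did not pass. Its paralogue Mx2, annotated as a polymorphic pseudogene, read 0.333 and 0.158 TPM in Hif1a-null libraries and 0.309 and 0.189 TPM in Hif1a-intact libraries. Of the immunity-related GTPases, Igtp read 6.98 and 6.01 TPM in Hif1a-null libraries and 8.13 and 5.24 TPM in Hif1a-intact libraries. Irgm1, which also acts in mouse stem cells exposed to interferon, read 27.8 and 26.8 TPM in Hif1a-null libraries and 28.2 and 18.2 TPM in Hif1a-intact libraries. Both of these pairs overlapped.

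The 6 nucleic acid sensors had 0 called members as well. At an unadjusted limma p under 0.05, 1 (Zbp1) was higher, where 11.4% of all tested genes were. Zbp1, a sensor of Z-form nucleic acid that triggers cell death, read 3.29 and 4.08 TPM in Hif1a-null libraries and 2.25 and 1.06 TPM in Hif1a-intact libraries (log2 fold change 0.85, SE 0.27, limma adjusted p = 0.173). Its groups did not overlap. The RNA helicases of the RIG-I family all overlapped between groups. Ddx58 (RIG-I) read 34.4 and 25.4 TPM in Hif1a-null libraries and 28.1 and 11.1 TPM in Hif1a-intact libraries. Ifih1 (MDA5) read 4.81 and 4.19 TPM in Hif1a-null libraries and 4.41 and 2.71 TPM in Hif1a-intact libraries. Dhx58 (LGP2), which modulates both, read 9.55 and 8.95 TPM in Hif1a-null libraries and 9.85 and 4.75 TPM in Hif1a-intact libraries. In each helicase gene the low value was that of Hif1a-intact replicate 2. Ddx58 shares 102 bases at 95.1% identity, on the opposite strand, with Gm11032, so some reads may be mixed. Gm11032 read 482 and 439 TPM in Hif1a-null libraries and 490 and 111 TPM in Hif1a-intact libraries.

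Eif2ak2, which encodes the kinase PKR, differed least of all the tested members. It read 25.9 and 24.4 TPM in Hif1a-null libraries and 25.2 and 25.04 TPM in Hif1a-intact libraries (limma adjusted p = 0.996). Adar, which edits double-stranded RNA and so keeps it from the sensors, read 18.8 and 12.8 TPM in Hif1a-null libraries and 16.9 and 20.3 TPM in Hif1a-intact libraries, again with overlap.

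The Ifitm genes encode membrane proteins that block virus entry, and Ifitm6 and Ifitm3 were the most abundant members by mean TPM. Ifitm6 (chr7:141015699-141017924, minus strand) read 237 and 245 TPM in Hif1a-null libraries, against 114 and 115 TPM in Hif1a-intact libraries. Replicates differed by far less than the groups, and Ifitm6 was 2.11-fold higher (log2 fold change 1.07, SE 0.12, limma adjusted p = 0.0214). Ifitm3 read 117 and 125 TPM in Hif1a-null libraries and 94.9 and 85.2 TPM in Hif1a-intact libraries, a difference without overlap that did not pass (0.42, limma adjusted p = 0.177). Ifitm2 read 58.5 and 53.3 TPM in Hif1a-null libraries and 84.2 and 53.2 TPM in Hif1a-intact libraries. Ifitm1 read 8.62 and 7.86 TPM in Hif1a-null libraries and 8.79 and 2.99 TPM in Hif1a-intact libraries. The last pair of genes overlapped between groups.

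These abundant genes weigh on any summed level. All 45 members together came to 971 and 957 TPM in Hif1a-null libraries and 796 and 652 TPM in Hif1a-intact libraries. Ifitm3 and Ifitm6 alone made up 36.5% and 38.6% of the sum in the Hif1a-null libraries and 26.2% and 30.6% in the Hif1a-intact libraries. Without the 4 Ifitm genes the sum was 550 and 526 TPM in Hif1a-null libraries and 494 and 396 TPM in Hif1a-intact libraries.

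Parp9, Parp14 and Dtx3l, which encode ADP-ribosyltransferases and a partner ubiquitin ligase, had no called member, also at an unadjusted limma p under 0.05. Dtx3l had the smallest p of them, with 22.3 and 23.6 TPM in Hif1a-null libraries and 29.7 and 24.7 TPM in Hif1a-intact libraries (log2 fold change -0.23, SE 0.15, limma adjusted p = 0.449). Parp9 read 9.57 and 9.56 TPM in Hif1a-null libraries and 15.2 and 10.03 TPM in Hif1a-intact libraries. For both, the Hif1a-null values were the lower ones. Parp9 and Dtx3l overlap on opposite strands, and no strand setting is stated for the quantification, so their reads may be mixed. The same holds for Parp9 and the antisense gene Gm15564, and for Irf7 and Phrf1, which also overlap on opposite strands. Parp14 read 7.28 and 7.68 TPM in Hif1a-null libraries, between 8.97 and 6.67 TPM in Hif1a-intact libraries.

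Among the other antiviral effectors Rsad2 was called. Rsad2 (viperin, chr12:26442746-26456452, minus strand) makes a chain-terminating nucleotide. It read 3.16 and 3.82 TPM in Hif1a-null libraries, against 0.534 and 0.492 TPM in Hif1a-intact libraries, a 6.80-fold ratio of means (log2 fold change 1.57, SE 0.14, limma adjusted p = 0.0132). The groups did not overlap, but Rsad2 entered the test only through the Hif1a-null libraries, so higher was its only possible call. Its neighbour Cmpk2, a nucleotide kinase gene of the same pathway and no member of the 45, read 17.2 and 18.2 TPM in Hif1a-null libraries and 14.3 and 16.8 TPM in Hif1a-intact libraries (0.18, limma adjusted p = 0.532).

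Isg20, an exonuclease gene, had a larger log2 fold change than Rsad2 but a smaller ratio of means (5.75-fold) and a wider spread. It read 11.9 and 10.5 TPM in Hif1a-null libraries, against 3.04 and 0.850 TPM in Hif1a-intact libraries (log2 fold change 2.15, SE 0.41, limma adjusted p = 0.0629). The groups did not overlap, and the Hif1a-intact pair was 3.57-fold apart. Bst2 (tetherin), which holds budding virus at the cell surface, read 21.2 and 20.2 TPM in Hif1a-null libraries and 20.3 and 10.7 TPM in Hif1a-intact libraries. Samhd1, which depletes the nucleotides a virus needs, read 67.7 and 63.1 TPM in Hif1a-null libraries and 72.4 and 89.7 TPM in Hif1a-intact libraries, with the Hif1a-null values below. Trim30a read 37.0 and 36.3 TPM in Hif1a-null libraries, between 41.8 and 28.2 TPM in Hif1a-intact libraries.

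Of the other induced genes, Ifi44 and Rtp4 were called. Ifi44 (chr3:151730922-151749960, minus strand) read 7.46 and 8.87 TPM in Hif1a-null libraries, against 1.74 and 1.93 TPM in Hif1a-intact libraries, a 4.45-fold ratio of means (log2 fold change 1.69, SE 0.15, limma adjusted p = 0.0121). Rtp4 (chr16:23520291-23614222, plus strand), which encodes a receptor transporter protein, read 5.49 and 4.48 TPM in Hif1a-null libraries and 1.15 and 0.325 TPM in Hif1a-intact libraries (1.82, SE 0.28, limma adjusted p = 0.0403). Groups were separate in both genes, but the Rtp4 call was lost with a pseudocount of 0.1 (adjusted p = 0.0975) and with no filter (adjusted p = 0.0968), in a range from 0.0291 to 0.278 over its alternatives. Ifi27l2a read 8.25 and 8.68 TPM in Hif1a-null libraries, against 2.37 and 0.635 TPM in Hif1a-intact libraries (2.01, SE 0.38, limma adjusted p = 0.0617). Xaf1, whose product binds the apoptosis inhibitor XIAP, read 9.72 and 14.9 TPM in Hif1a-null libraries and 7.88 and 2.24 TPM in Hif1a-intact libraries (1.28, SE 0.55, limma adjusted p = 0.270). In these last genes the Hif1a-null values were the higher ones and the Hif1a-intact pair lay over 3-fold apart. Ifi35 read 13.5 and 10.2 TPM in Hif1a-null libraries and 8.73 and 15.3 TPM in Hif1a-intact libraries, with overlap.

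**Figure D3:**
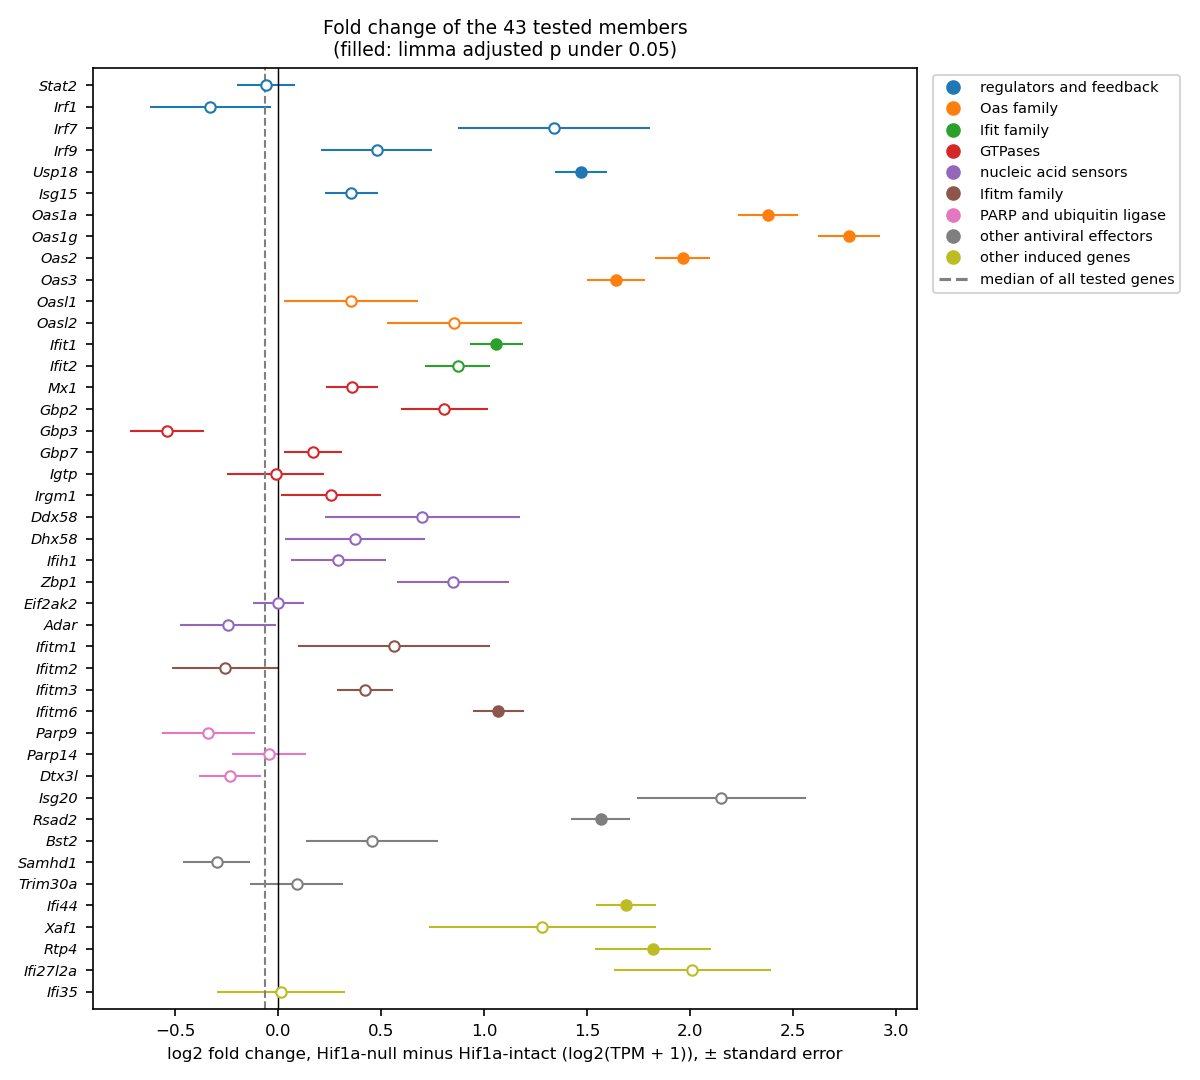
Log2 fold change (Hif1a-null minus Hif1a-intact, log2(TPM + 1) scale) with its standard error for the 43 tested members, by role; filled points are the 10 called members and the dashed line is the median of all tested genes, -0.06. The points of Oas1g (2.77) and Oas1a (2.38) lie furthest to the right, and the points of the GTPases, the sensors and the PARP group lie between -0.54 and 0.85.

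Over the 43 tested members the median log2 fold change was 0.45, against -0.06 over all tested genes. By role the median was 1.80 in the Oas family, 1.69 in the other induced genes and 0.96 over the pair of Ifit genes tested, and it was lowest in the PARP and ubiquitin ligase group, at -0.23. The medians of the regulators (0.42), the Ifitm genes (0.49), the other effectors (0.45), the sensors (0.33) and the GTPases (0.21) lay between. Some of these medians hold members that the filter allowed only a positive value. They were Oas1g and Oas2 (Oas family), Ifit1 (Ifit family), Mx1 (GTPases) and Rsad2 (other effectors). Both Hif1a-null libraries were above both Hif1a-intact libraries in 23 tested members (53.5%), which holds for 22.7% of all tested genes. They were below in 4 (9.30%), Gbp3, Parp9, Dtx3l and Samhd1, which holds for 32.3% of all tested genes. The other 16 overlapped. Of the 23 above, Oas1g, Oas2, Ifit1, Rsad2 and Mx1 entered the test only through the Hif1a-null libraries, so above was their only possible outcome. Among all 11909 tested genes, 536 entered in that way. Among the 38 members that reached 1 TPM in at least 1 library of each group, 18 were above and 4 below. The matching shares of all such genes were not computed, so these counts are not a result about the members. The median log2 fold change of these 38 members was 0.40.

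The Hif1a-intact libraries differed from each other in these genes more than the Hif1a-null libraries did. The median absolute difference between the libraries of a group, on the log2 scale, was 0.10 in Hif1a-null and 0.47 in Hif1a-intact over the tested members, and 0.12 in Hif1a-null and 0.26 in Hif1a-intact over all tested genes. Hif1a-intact replicate 1 was above replicate 2 in 31 of the 43 members (72.1%), against 59.1% of all tested genes. It was over 2-fold above in 11 members (25.6%), against 6.84% of all tested genes. These 11 were Irf7, Oas1g, Oasl2, Ddx58, Dhx58, Zbp1, Ifitm1, Isg20, Xaf1, Rtp4 and Ifi27l2a. Oas1g counts here only by 0.157 TPM against a listed 0, so its spread is not measured. Replicate 2 was over 2-fold above replicate 1 in 0 members, and the Hif1a-null libraries were over 2-fold apart in 0 members, where 4.0% and 4.28% of all tested genes were.

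Most of the called members were not among those 11. Oas2, Oas3, Ifi44, Usp18, Ifit1 and Ifitm6 were slightly lower in Hif1a-intact replicate 1 than in replicate 2, and Rsad2 and Oas1a were slightly higher in it. Members such as Isg20, Ifi27l2a, Irf7 and Xaf1 had large differences between groups together with a large spread.

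**Figure D4:**
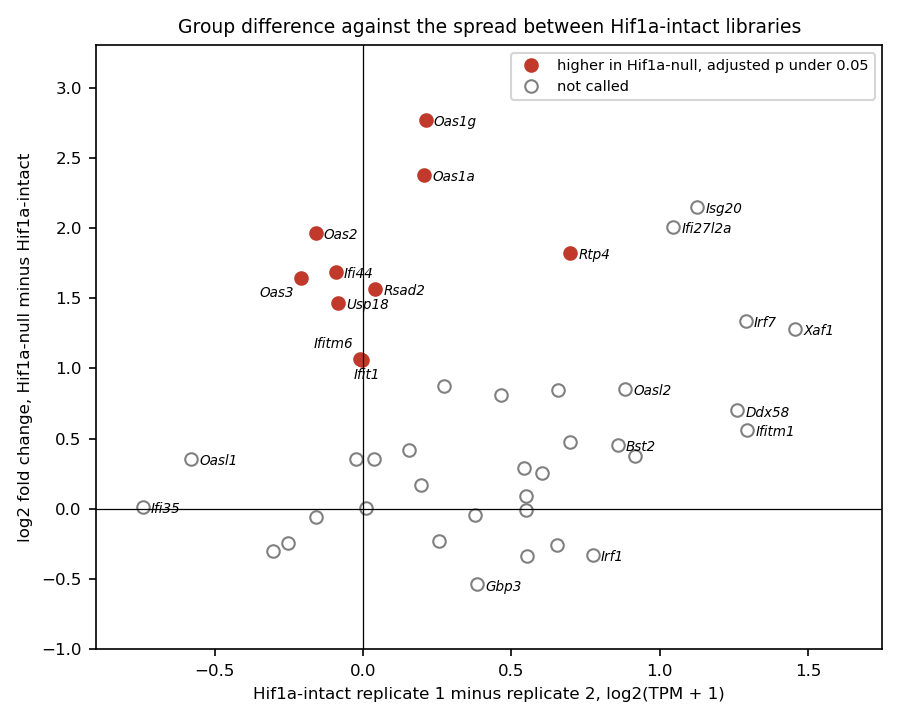
Log2 fold change of the 43 tested members (vertical axis, Hif1a-null minus Hif1a-intact) against the difference between the Hif1a-intact libraries (horizontal axis, replicate 1 minus replicate 2, log2(TPM + 1)); filled points are called members. Most filled points lie near 0 on the horizontal axis, and the open points with a fold change over 1 (Isg20, Ifi27l2a, Irf7 and Xaf1) lie far to the right.

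The number of called members depended on the libraries kept. Without Hif1a-intact replicate 1, 18 members were called higher by limma, against 6.29% of all tested genes: the same 10 with Bst2, Ifi27l2a, Ifit2, Ifitm1, Irf7, Irf9, Isg20 and Oasl2. The median log2 fold change was then 0.83. With either Hif1a-intact library left out, the spread comes from the Hif1a-null pair alone, which was the closer pair, and the lone library is assumed to vary like it. Without Hif1a-intact replicate 2, 11 were called, against 4.49% of all tested genes: 9 of the 10 (Ifit1 was lost) with Ifi27l2a and Isg20, and the median was 0.35. Without Hif1a-null replicate 1 or replicate 2, 0 of 38 tested members were called, where 0.0977% and 0.0% of all tested genes were called higher, with 10 and 9 members higher at an unadjusted limma p under 0.05, where 4.22% and 4.26% of all tested genes were. The spread then comes from the Hif1a-intact pair alone and the lone library is assumed to vary like it. The medians were 0.38 without Hif1a-null replicate 1 and 0.45 without replicate 2. With a mean of at least 5 TPM required, 30 members were tested and 3 were called, against 2.59% of all tested genes, because the other 7 were not tested.

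The layers of the pathway above these genes had 2 called genes, Ifnlr1 and Irf5. Since 7.27% of all tested genes were called in either direction, that share is not a result about these layers. Of the interferon genes, 11 were in the table. Of these 10, Ifnb1 among them, were listed at 0 in all 4 libraries, and Ifng read 0.0864 and 0.166 TPM in Hif1a-null libraries and was listed at 0 in the Hif1a-intact pair. Of the 11 receptor and JAK-STAT genes, 1 was called higher and 0 were called lower. In 8 of the 11 both Hif1a-null values lay below both Hif1a-intact values, a pattern found in 32.3% of all tested genes. The median log2 fold change of the 11 was -0.35. At an unadjusted limma p under 0.05, Stat3, Ifngr2, Ifnar2 and Il10rb were lower, where 11.9% of all tested genes were.

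Ifnlr1, the receptor chain for interferon lambda, was the gene called higher. It read 8.63 and 9.26 TPM in Hif1a-null libraries, against 2.32 and 2.20 TPM in Hif1a-intact libraries (log2 fold change 1.61, SE 0.13, limma adjusted p = 0.00988). The chains of the type I receptor were not called. Ifnar1 read 14.5 and 13.1 TPM in Hif1a-null libraries and 23.9 and 16.7 TPM in Hif1a-intact libraries (-0.50, limma adjusted p = 0.262). Ifnar2 read 219 and 188 TPM in Hif1a-null libraries and 282 and 262 TPM in Hif1a-intact libraries (-0.42, limma adjusted p = 0.203). In both chains the Hif1a-null values were below. Stat3 read 189 and 207 TPM in Hif1a-null libraries and 261 and 290 TPM in Hif1a-intact libraries (-0.47, limma adjusted p = 0.151).

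Among 14 tested genes that carry the signal from the sensors, 0 were called higher and Irf5 was called lower. Irf5 read 10.2 and 8.47 TPM in Hif1a-null libraries, against 18.2 and 20.6 TPM in Hif1a-intact libraries (log2 fold change -0.99, SE 0.16, limma adjusted p = 0.0430). This call was lost in 10 of 15 alternatives, with adjusted p between 0.0288 and 0.506. Tlr7, the endosomal receptor for single-stranded RNA, read 29.8 and 27.5 TPM in Hif1a-null libraries and 12.3 and 6.66 TPM in Hif1a-intact libraries, and did not pass (1.55, SE 0.30, limma adjusted p = 0.0659). Cgas, the DNA sensor, read 13.4 TPM in both Hif1a-null libraries and 18.4 and 19.3 TPM in Hif1a-intact libraries (-0.47, limma adjusted p = 0.125).

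Of the 8 negative regulators tested, 0 were called. At an unadjusted limma p under 0.05, Socs3 and Ptpn6 were lower, where 11.9% of all tested genes were. Socs3, an inhibitor of cytokine receptors, read 1.83 and 1.31 TPM in Hif1a-null libraries and 2.98 and 2.94 TPM in Hif1a-intact libraries (log2 fold change -0.63, limma adjusted p = 0.114). Ptpn6, the phosphatase SHP-1, read 611 and 610 TPM in Hif1a-null libraries and 791 and 1026 TPM in Hif1a-intact libraries. Usp18, the feedback inhibitor counted among the 45, is given with the regulators.

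A second list of 54 interferon-induced genes outside the 45 gave values of both signs. Of the 42 tested, 6 were called higher and 2 lower, where 5.25% of all tested genes were called higher and 2.02% lower, and the median log2 fold change was 0.46. Of the 42, 5 entered only through the Hif1a-null libraries, and 3 of these (Oas1b, Oas1c and Trim30b) are among the 6 called higher. Slfn1, a growth-regulatory Schlafen gene, read 8.37 and 8.38 TPM in Hif1a-null libraries, against 1.58 and 1.54 TPM in Hif1a-intact libraries (1.87, SE 0.12, limma adjusted p = 0.00763). The other genes called higher were Slfn3, Slfn4, Trim30b, Oas1b and Oas1c. Ifi30, a lysosomal thiol reductase induced by interferon gamma, was called lower. It read 6.43 and 6.94 TPM in Hif1a-null libraries, against 23.3 and 22.8 TPM in Hif1a-intact libraries (-1.65, SE 0.13, limma adjusted p = 0.00936). Ms4a4c, the other gene called lower, read 27.0 and 21.5 TPM in Hif1a-null libraries and 91.3 and 74.1 TPM in Hif1a-intact libraries (-1.73, limma adjusted p = 0.0199).

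**Figure D5:**
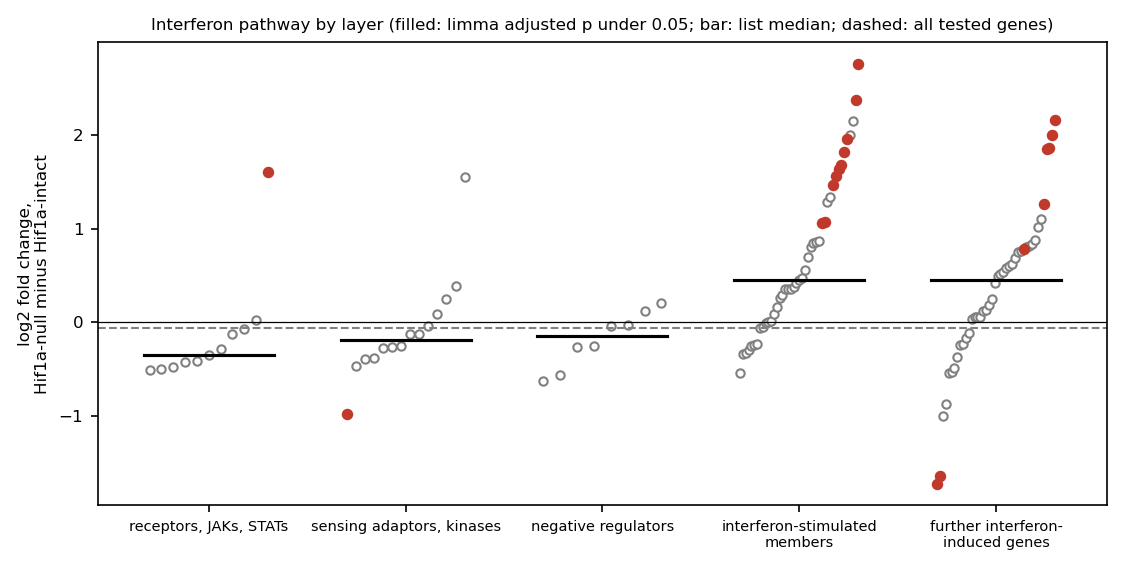
Log2 fold change (Hif1a-null minus Hif1a-intact) of every tested gene in 5 layers of the interferon pathway, sorted within each layer; filled points passed limma, bars are the medians of the lists (from -0.35 for receptors, JAKs and STATs to 0.46 for the further induced genes), and the dashed line is the median of all tested genes, -0.06. The called points of the members all lie above 0, and the receptor layer has a single filled point, Ifnlr1.

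Plasmacytoid dendritic cells are a marrow cell type with high resting expression of Irf7 and Bst2, and their markers gave mixed values. The 10 markers summed to 109 and 101 TPM in Hif1a-null libraries and 88.6 and 105 TPM in Hif1a-intact libraries. Of the 6 tested, 2 were called higher and 0 lower, where 5.25% of all tested genes were called higher and 2.02% lower. Siglech read 15.3 and 14.6 TPM in Hif1a-null libraries, against 1.72 and 1.41 TPM in Hif1a-intact libraries (log2 fold change 2.64, limma adjusted p = 0.00552), and Spib was the other (0.94, limma adjusted p = 0.0434). Spib entered only through the Hif1a-null libraries, and its call was lost in 7 of 12 alternatives, with adjusted p between 0.0266 and 0.142. Both Hif1a-null values were above in 4 of the 6 tested (Tcf4 and Cd209d were the others) and below in 2, Lair1 and Runx2. Among all tested genes 22.7% were above and 32.3% below. Cd209d, like Spib, entered only through the Hif1a-null libraries, so above was their only possible outcome. Lair1 read 28.5 and 25.4 TPM in Hif1a-null libraries and 35.8 and 46.4 TPM in Hif1a-intact libraries, so it weighs on the sum. Cox6a2, Pacsin1 and Ccr9, too low to be tested, had both Hif1a-null values above. Klk1 was listed at 0 in all 4 libraries, and Cox6a2 in both Hif1a-intact libraries. The 10 monocyte and macrophage markers summed to between 569 and 589 TPM in Hif1a-null libraries and between 662 and 708 TPM in Hif1a-intact libraries, with Ccr2 called higher and Adgre1 lower. The part of these cells in the interferon-stimulated values was not tested.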

How the data were processed

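RNA of c-Kit+ bone marrow cells had been sequenced in 4 libraries, 2 in each group, with groups taken from the genotype in the labels. The authors deposited 1 TPM value per gene and library, quantified with kallisto with mm10 named as the build, per the submitters' processing notes. The sources used here give no version, transcript set or strand setting. The unit was inferred from the values, whose columns sum to between 955562 and 963135. Read counts cannot be recovered from TPM: the depth of each library is unknown, no counting interval can be given, and the number of libraries limits the precision. An exact permutation test of 2 against 2 cannot go below p = 0.333 and was not used.

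Symbols and gene positions came from GENCODE vM21 (GRCm38) by Ensembl identifier (27458 of 28987 genes). Genes that reached 1 TPM in 2 or more libraries were tested, two-sided, on log2(TPM + 1) by limma (version 3.58.1, run in R 4.3.3), checked on simulated data, with Benjamini-Hochberg adjustment over all 11909 tested genes and a threshold of 0.05. Near-identical transcripts were searched with blastn 2.17.0 (95% identity or more, over 100 bases and 50% of the shorter transcript). Promoters were RefSeq's (GRCm38.p6). Python 3.11.15 with pandas 2.3.3 and matplotlib 3.10.9 was used for summaries and figures. Full statistics were set for called members and for the member of smallest p in each group with none, and were also given, after their values were seen, for Irf7, Ifit2, Mx1, Isg20, Ifi27l2a and Xaf1; from each pathway list up to 3 genes of smallest p were named, with Ifnar1 and Ifnar2. A result that the naming rule also covers is not reported here. Slfn3, Slfn4, Trim30b, Oas1b, Oas1c, Ms4a4c, Cmpk2, Il10rb and the other lower receptor genes were named after their values were seen. So were the markers Tcf4, Cd209d, Lair1, Runx2, Pacsin1 and Ccr9. The members and lists were chosen with earlier results of these data known.

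Alternatives were a trend or robust variance, quantile and median-ratio rescaling, pseudocounts of 0.1 and 5, other filters, protein-coding genes only, members summed with copies, and each library left out in turn.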

Additional observations from a re-analysis of the deposited data

How the results depend on the processing

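The count of members called higher, 10, stayed within 1.5 times (from 9 to 14) under both variance models, both rescalings, both pseudocounts, no filter, a mean of at least 1 TPM, members summed with copies and protein-coding genes only, where between 2.14% and 6.51% of all tested genes were called higher. With a mean of at least 5 TPM it was 3. The 14, reached with protein-coding genes only, hold Ifit3, which entered that fit only through the Hif1a-null libraries. Leaving out each library in turn gave from 0 to 18 members called higher, 0 called lower, medians of log2 fold change from 0.35 to 0.83 and from 0 to 1019 called genes in all, where all 4 libraries gave 866. All called genes numbered 568 with no filter and 343 with a mean of at least 5 TPM. Among the tested members, 2 reversed outside these library exclusions: Igtp read 0.0187 with median-ratio rescaling and Eif2ak2 -0.00256 with protein-coding genes only. With a library left out, fold changes of uncalled genes crossed 0: Stat2 -0.14 to 0.0200, Irf1 -0.72 to 0.0579, Igtp -0.29 to 0.26, Irgm1 -0.0444 to 0.56, Dhx58 -0.0830 to 0.83, Eif2ak2 -0.0390 to 0.0422, Adar -0.51 to 0.0201, Ifitm1 -0.0853 to 1.21, Ifitm2 -0.58 to 0.0700, Parp14 -0.23 to 0.14, Trim30a -0.18 to 0.37, Ifi35 -0.36 to 0.39 and Kmt2a -0.0912 to 0.0126. The cause was not tested. No paired analysis was possible because the labels give no replicate numbers. Depth is unknown, and members near 1 TPM may rest on few reads.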

Other observations

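The Schlafen genes, a family of interferon-induced growth regulators outside the 45, lie in a cluster on chromosome 11. Of the 7 tested there, 3 were called higher in Hif1a-null libraries, where 5.25% of all tested genes were. Among all genes at 1 TPM or more in at least 1 library of each group the share was 2.62%. Slfn4 had 104 TPM in each Hif1a-null library, against 18.8 and 26.9 TPM in Hif1a-intact libraries (log2 fold change 2.16, SE 0.21, limma adjusted p = 0.0147). Slfn3, its neighbour, had 49.5 and 47.4 TPM in Hif1a-null libraries and 28.2 and 27.3 TPM in Hif1a-intact libraries (0.78, SE 0.12, limma adjusted p = 0.0420). Slfn1 was the other called gene, and Slfn2, Slfn5, Slfn8 and Slfn9 were not called. Slfn9 was the gene of the cluster with both Hif1a-null values below, 9.77 and 9.51 TPM in Hif1a-null libraries and 11.5 and 18.3 TPM in Hif1a-intact libraries (-0.55, limma adjusted p = 0.291). Near-identical copies within this family were not searched. These genes were picked after their values were seen.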
